A study of Mus musculus with 6 samples.

Results

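Among the 1336 tRNA fragment (tRF) sequences counted in mouse heart, 435 belong to the class tRF_1, the trailers. Of these, 158 are short sequences without a T-run end: they are 23 nt or less in length and their last 3 bases are not all T. These 158 were chosen from sequence and length alone, with no use of counts. The remaining trailers were 127 short ones that end in TTT and 150 of 24 nt or more. All mice were C57BL/6. The 3 control mice carried loxP-flanked Elac2 without cre (L/L, labelled Elac2 +/+), and the 3 knockout mice (L/L, cre, labelled Elac2 -/-) carried the same loxP sites and cre under the muscle creatinine kinase promoter. RNA came from whole hearts, which also hold cells that this promoter does not target, and RNAs of 15 to 35 nt were selected. Each mouse has 1 column of counts, called a library here. It stands for 4 technical replicates, and how these were combined is not given. The labels used here name no age. Elac2 mRNA was not analysed here, so the labels were not checked against the deleted gene.

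A tRNA is transcribed by RNA polymerase III with extra bases at its 3′ end, the trailer, and transcription stops in a run of T in the DNA. RNase Z, encoded by Elac2, cuts the precursor after the discriminator base, the last base of the mature tRNA before CCA, and so releases the trailer. The CCA end is then added to the tRNA. A trailer that still carries the T run at which transcription stopped therefore ends in that run. A TTT end alone does not show this, since some longer trailers here read on through the TTT at which a shorter one ends. A sequence that starts at the same base and ends earlier, or ends beyond a T run, has another 3′ end.

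The sequences fall into ladders, sets that share their first bases and differ at the 3′ end. The most abundant ladder is printed first because it holds the only sequence that passed the test between genotypes. Capitals mark a terminal run of T of any length. Steps that end in TTT are not among the 158 and are printed for comparison. A further trailer with this start, tRF_1_435, has 77 nt and 1 count and is not printed. It reads on past the TTT at which tRF_1_279 ends, to a later run of TTTT.
tRF_1_35: ttgggactggtactc
tRF_1_69: ttgggactggtactcc
tRF_1_103: ttgggactggtactccT
tRF_1_128: ttgggactggtactccTT
tRF_1_154, ending in TTT: ttgggactggtactccTTT
tRF_1_187: ttgggactggtactccttta
tRF_1_214: ttgggactggtactcctttaT
tRF_1_242: ttgggactggtactcctttaTT
tRF_1_279, ending in TTT: ttgggactggtactcctttaTTT

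The other abundant sequences without a T-run end are shown with the most abundant TTT-ended trailer that has the same first 12 nt, so that the position of each end can be read against the T run.
tRF_1_114: agcagccggaattctgTT
tRF_1_137, ending in TTT: agcagccggaattctgTTT
tRF_1_86: gcagccggaattctgTT
tRF_1_118, ending in TTT: gcagccggaattctgTTT
tRF_1_246: tttagtagtaccgtccctttgc
tRF_1_369, ending in TTT: tttagtagtaccgtccctttgcagcTTTT
tRF_1_269: gttttcaagctgtagcactatgg
tRF_1_424, ending in TTT: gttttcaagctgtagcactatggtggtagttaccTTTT
tRF_1_272: tcggaggctttgtttttaaaaTT
tRF_1_64, ending in TTT: tcggaggctttgTTTT
tRF_1_281: ttgtatgccctttgtatcactga
tRF_1_425, ending in TTT: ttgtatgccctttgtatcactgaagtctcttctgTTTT
tRF_1_193: acagacagttaggcctcaccT
For tRF_1_193 no trailer with the same first 12 nt ended in TTT. tRF_1_86 has the bases of tRF_1_114 without the first one.

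The 158 sequences were rare. Their counts per library were 873, 334 and 462 in the controls and 587, 362 and 416 in the knockouts, out of totals over all tRF sequences of 235046, 773252 and 378924 in the controls and 55946, 45354 and 61712 in the knockouts. The counts of the 158 overlapped between genotypes, whereas the tRF totals did not: every knockout total lay below every control total. Of the 3034 counts in all, 4 sequences held 41.2% and 10 held 63.6%. By contrast 55 sequences were seen once, 113 had under 10 counts over all 6 libraries, and the median total was 3. Only 22 were seen in all 6 libraries, while 72 were seen in 1. The 51 sequences counted only in controls had at most 6 counts each and the 31 counted only in knockouts at most 4, so a difference in presence was not detectable at this depth.

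The lengths ran from 15 to 23 nt with a median of 20 nt. They were not weighted to the shortest lengths: 12 sequences had 15 nt, 20 had 21 nt, 22 had 22 nt and 32 had 23 nt. The length limit of the rule falls inside this distribution. At 23 nt, just inside it, the sequences without a TTT end had 237 control and 263 knockout counts, and the 23 sequences of 24 nt without a TTT end, just outside it, had 120 and 148. At the limit on T, the 28 sequences that end in exactly 2 T had 896 control and 496 knockout counts, and the 37 short trailers that end in exactly 3 T had 3628 and 1959.

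Most of the counts lay in sequences that are the start of a longer T-ended trailer. This was so for 93 of the 158 (58.9%), which held 87.5% of the counts. A further 6 lay inside a TTT-ended trailer but not at its start. Of the 65 that are not such a start, 35 were the start of another longer trailer. The distance to the nearest TTT-ended trailer was short by abundance and long by kind. The 14 sequences 1 base short of it, which end in TT by definition, held 1324 counts. The 18 that were 2 bases short held 270 counts and the 10 that were 3 bases short held 259, whereas 26 were 10 or more bases short. The median over the 93 was 4 bases and the largest distance 20 bases.

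Nesting in a longer trailer did not describe every sequence. A comparison chosen after the ladders were seen showed that 33 sequences, with 1024 counts, also extend a shorter TTT-ended trailer past its T run. Of these, 19 both extended one T-ended trailer and were the start of another, with 951 counts or 31.3% of the total, and 14 only extended one, with 73 counts or 2.41%. The 74 that were only a start held 56.2% of the counts. The 51 that were neither held 10.1%. tRF_1_242 shows the mixed case: it holds the internal TTT at which tRF_1_154 ends and stops 1 base before the end of tRF_1_279.

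**Figure D1:**
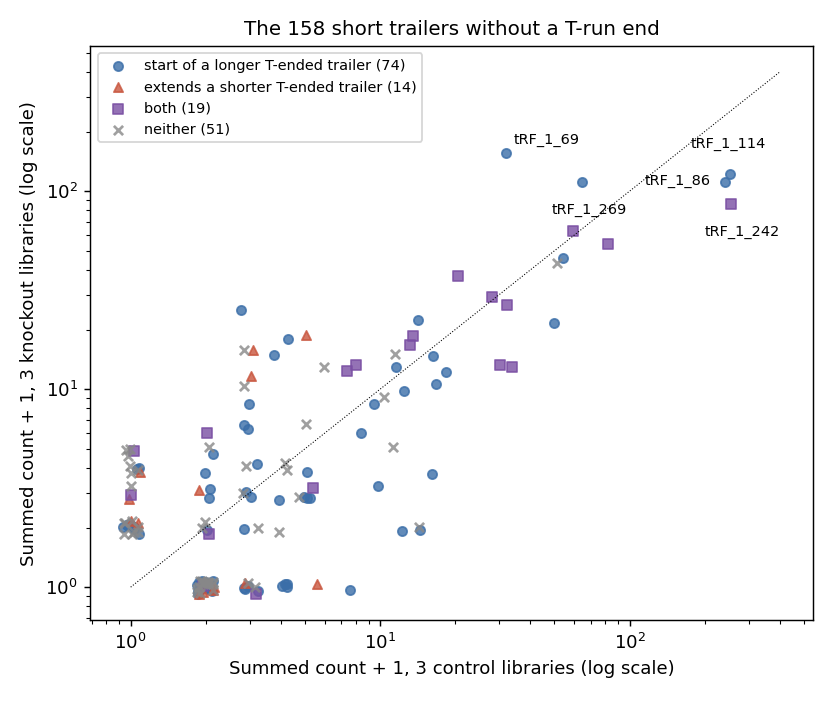
Summed counts plus 1 of each of the 158 sequences in the 3 control libraries (x axis, log scale) against the 3 knockout libraries (y axis, log scale), with a small jitter that separates tied points, and the dotted line marking equal counts. Marker shapes give the relation to TTT-ended trailers; most points lie at a few counts, and tRF_1_69 stands above the line with 30 control and 152 knockout counts.

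By their last bases, 28 sequences ended in TT and held 1392 counts, and 41 ended in a single T and held 474. Ends in C, found in 31 sequences, held 430 counts, those in G (23 sequences) 412, and those in A (35 sequences) 326. Thus TT ends held the most counts, and most of these lay in tRF_1_114 with 372, tRF_1_86 with 363 and tRF_1_242 with 333.

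Grouping by the first 12 nt gave 70 families. Of these, 35 had 1 sequence, 35 had 2 or more with 123 sequences between them, and the largest, 5 families, had 7 each. The 8 families with the most counts held 80.1% of all counts, and the family of tRF_1_242 alone held 28.3%. In 36 families a TTT-ended trailer had the same first 12 nt, and 34 had none. Counted against TTT-ended trailers of any length, the sequences of 23 nt or less without a TTT end had more counts in 12 families and fewer in 22. These ratios ran far apart. In the family of tRF_1_242 there were 858 counts in such short sequences against 268 in TTT-ended ones, while in the family of tRF_1_272 there were 133 against 7246. The family of tRF_1_114 had 388 against 107, that of tRF_1_86 had 373 against 380, and that of tRF_1_246 had 249 against 895. For tRF_1_269 the values were 212 and 24, for tRF_1_281 110 and 47, and for tRF_1_193 108 and 0. Sequences of 24 nt or more without a TTT end stand outside both values. They held 132 counts in the family of tRF_1_246, 80 in that of tRF_1_269, 72 in that of tRF_1_193, 38 in that of tRF_1_281 and 0 in the 4 others.

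Some families differed from another only at the start. In 18 pairs of families the first 12 nt were those of the other shifted by 1 base. The pair of tRF_1_114 and tRF_1_86 was close to even, at 388 and 373 counts for the earlier and the later start. Other pairs were uneven, with 858 against 6 counts for the family of tRF_1_242 and its shifted form, and 249 against 3 for that of tRF_1_246. At n-TAagc16, described next, both families of a pair lie on the same trailer. For the other pairs a shared source was not tested, so their families are not counted as independent.

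A position next to a tRNA gene was found for 9 of the 146 sequences of 16 nt or more, all at 1 gene. Only RefSeq windows around gene starts (GRCm38.p6) were searched, and other copies in the genome were not searched. The gene is n-TAagc16, an alanine tRNA with anticodon AGC, on the plus strand of chromosome 13 at 21222586 to 21222657. The sequence was read from the promoter window of the predicted gene Gm32420. From chr13:21222638-21222697 the plus strand reads as follows, with the last 20 bases of the tRNA in lower case and the trailer up to the end of its 6-T run in capitals.
n-TAagc16 3′ end and trailer: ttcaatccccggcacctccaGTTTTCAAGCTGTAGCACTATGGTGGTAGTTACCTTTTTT
The family of tRF_1_269, 4 sequences, starts at base 1 after the tRNA and the family of tRF_1_285, 5 sequences, at base 2. tRF_1_269 covers 21222658 to 21222680, which is the first 23 of the 40 trailer bases. The longest deposited trailer from this start is tRF_1_424, with 38 nt. A run of TTTT already lies at trailer base 2, inside every one of these sequences. A trailer that ended at this run would be too short for the size selection, so such an end could not be seen.

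Relative to all tRF counts, the share of the 158 lay higher in every knockout than in any control. It was 0.371%, 0.0432% and 0.122% in the controls and 1.05%, 0.798% and 0.674% in the knockouts. The groups did not overlap, and the means were 0.179% ± 0.171 and 0.840% ± 0.191 (SD, n = 3 each), with p = 0.10 in an exact two-sided permutation test, the smallest p that 3 against 3 can give. The tRF totals in the denominator move with genotype, as given above, and in whole-heart RNA fewer cells of a type and less RNA per cell cannot be told apart. Against trailers the groups overlapped. Of all trailer counts the 158 held 14.2%, 12.1% and 10.9% in the controls and 12.7%, 10.5% and 13.4% in the knockouts, which overlap, with means of 12.4% ± 1.65 and 12.2% ± 1.504 (SD, n = 3 each, exact permutation p = 0.90). Of the counts in trailers of 23 nt or less they held 17.3%, 16.4% and 12.7% in the controls and 15.5%, 12.5% and 15.3% in the knockouts, with means of 15.5% ± 2.42 and 14.4% ± 1.66 (SD, n = 3 each, exact permutation p = 0.50). These last values compare the sequences with the TTT-ended trailers most like them. A p that misses the threshold does not show that the shares were equal.

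**Figure D2:**
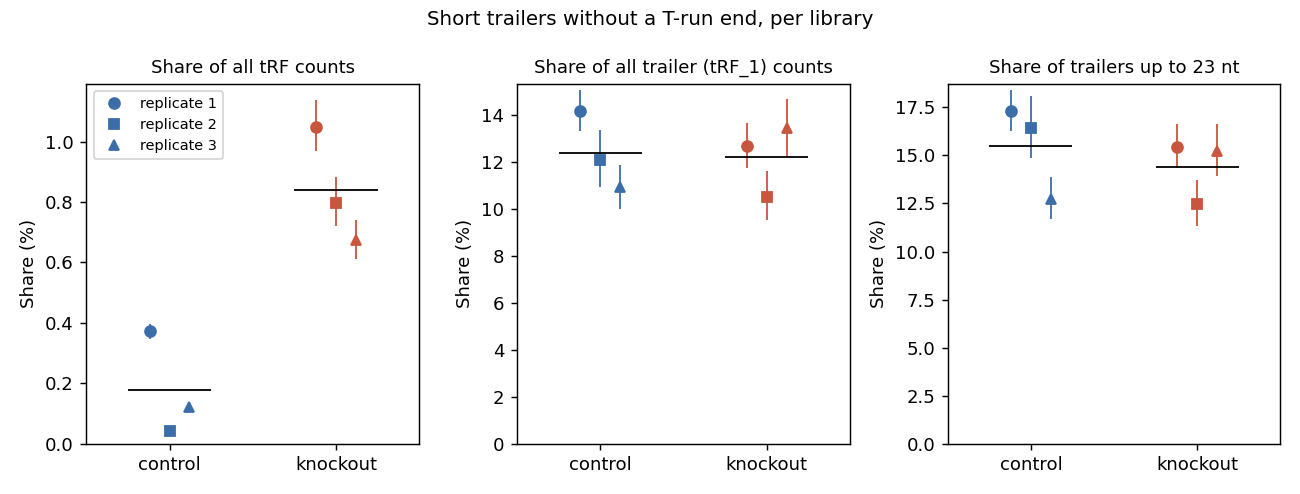
Share (%) of the 158 sequences in all tRF counts, all trailer counts and trailers of up to 23 nt (panels), with 1 point per library, Wilson 95% intervals for counting error as bars and the group mean as a line. Knockout libraries lie above all controls for the share of tRF counts, from 0.674% to 1.05%, and within or around the controls in the other panels.

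For 2 of the 5 kinds of 3′ end the groups did not overlap. TT ends held 56.4%, 50.6% and 50.9% of the counts of the 158 in the controls and 39.0%, 43.6% and 26.2% in the knockouts. Each knockout value lay below each control value, with means of 52.6% ± 3.25 and 36.3% ± 9.04 (SD, n = 3 each, exact permutation p = 0.10, Benjamini-Hochberg adjusted p = 0.25 over 5 kinds of end). C ends held 10.4%, 8.38% and 6.28% in the controls and 25.7%, 13.3% and 19.95% in the knockouts, again without overlap, with means of 8.36% ± 2.07 and 19.6% ± 6.24 (SD, n = 3 each, exact permutation p = 0.10, adjusted p = 0.25). For the single T, A and G ends the groups overlapped, with exact permutation p of 0.80, 0.50 and 0.30. The C ends include tRF_1_69. Without the 7 sequences of its family, a comparison added after the data were seen, C ends held 11.5%, 7.31% and 5.76% in the controls and 13.6%, 6.76% and 11.96% in the knockouts, which overlap. TT ends then held 51.6%, 46.2% and 48.9% against 40.4%, 45.6% and 27.9%, which still do not overlap.

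**Figure D3:**
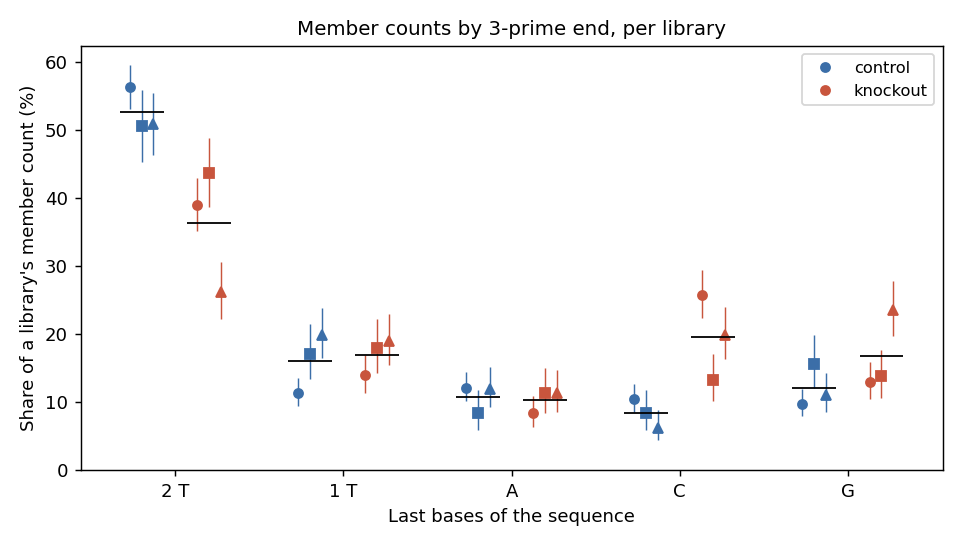
Share (%) of a library's counts in the 158 sequences by 3′ end (x axis: 2 T, 1 T, A, C or G), with 1 point per library, circle, square and triangle for replicates 1, 2 and 3, Wilson 95% intervals as bars and the group mean as a line. Knockout points lie below all controls for 2 T and above all controls for C, and the groups overlap for the other ends.

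Sequence by sequence, 13 of the 158 passed the filter on low counts, and they held 68.4% of the counts. The 145 others were not tested. The limit of the filter is relative to a library's tRF total, so a knockout library, with its lower total, passes with fewer counts. Of the 13, 12 were over the limit in every knockout and 1 in every control, and 3 (tRF_1_35, tRF_1_218 and tRF_1_272) were over it in no control. Sequences that are low in the knockouts could rarely pass, so directions among the 13 are a description only. In edgeR's quasi-likelihood test over all 254 sequences that passed, 1 of the 13 was higher in the knockout at a Benjamini-Hochberg adjusted p under 0.05 and 0 were lower. Over all sequences tested 32.7% were called, 15.7% as higher and 16.9% as lower. Of the 13, 9 had a log2 fold change above 0, and the median was 0.45 against 0.06 over all 254. Without a filter the median was 0.11 over all 158 and -0.51 over all 1336. The 30 short TTT-ended trailers tested had a median of 0.43 and 1 call, also higher. In CPM, the count scaled to a common TMM-adjusted library total, 4 of the 13 (tRF_1_69, tRF_1_269, tRF_1_272 and tRF_1_35) were above all controls and 0 were below, against 25.2% and 18.5% (43.7% in either direction) over all sequences tested. Since the filter favours sequences high in the knockouts, nothing is read from these 4. The figures also depend on the scaling. With library totals alone the median over all 254 moved to 2.15 and that of the 13 to 2.39, and 5 of the 13 were called higher (tRF_1_69, tRF_1_272, tRF_1_269, tRF_1_35 and tRF_1_193) where 40.9% of all sequences were (43.7% in either direction, with 2.76% lower). Every one of the 13 was then above 0, including the 4 that lay below 0 after TMM.

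**Figure D4:**
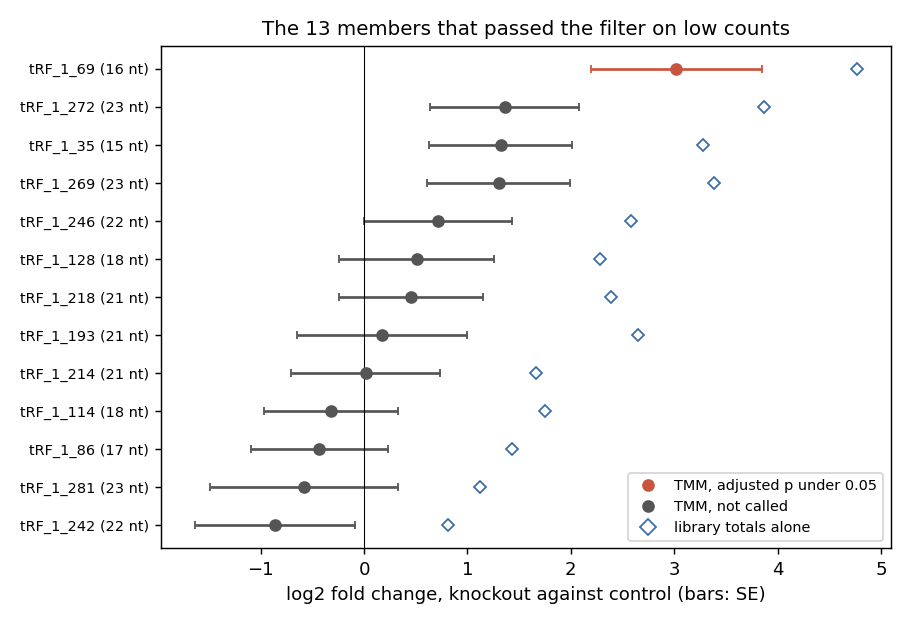
log2 fold change (x axis, knockout against control) of the 13 tested sequences, with edgeR's estimate after TMM scaling and its SE as circles with bars and the estimate from library totals alone as diamonds. tRF_1_69 at 3.02 is the one called after TMM, and every diamond lies to the right of its circle and of 0.

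The sequence that rose was tRF_1_69, the 16-nt step of the most abundant ladder that ends in C just before the first internal TTT. Its counts were 21, 5 and 4 in the controls and 95, 23 and 34 in the knockouts. In CPM these were 88.6, 30.2 and 26.5 against 719, 202.9 and 302, so that the lowest knockout was above the highest control. The log2 fold change was 3.02 ± 0.83 (SE), with an adjusted p of 0.0094 in edgeR. Knockout replicate 1 was the highest, and without it the log2 fold change was 2.44 and the call was lost (edgeR adjusted p = 0.056). tRF_1_69 passed the filter through the 3 knockouts and 1 control, and it was also called without a filter (2.68, edgeR adjusted p = 0.014). In the authors' deposited table tRF_1_69 had a log2 fold change of 2.83 and an adjusted p of 0.0063, and it was the only one called of the 43 of the 158 sequences that have an adjusted p there. Of all 532 sequences with an adjusted p there, 29 were called higher and 61 lower.

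No other step of this ladder passed the test. The shorter step tRF_1_35 had 33.8, 24.2 and 13.3 CPM in the controls and 45.4, 52.9 and 88.9 in the knockouts, without overlap, and a log2 fold change of 1.32 ± 0.70 (edgeR adjusted p = 0.17). The next longer step, tRF_1_103, had counts of 2, 0 and 0 against 14, 5 and 4 and did not pass the filter. It was not called without a filter (log2 fold change 3.61, edgeR adjusted p = 0.087) or by DESeq2 (4.03, adjusted p = 0.064). The 18-nt step tRF_1_128 overlapped, with counts of 32, 6 and 13 against 30, 7 and 9 and a log2 fold change of 0.51 ± 0.75 (edgeR adjusted p = 0.66). The 21-nt step tRF_1_214 had 59, 15 and 14 counts against 15, 14 and 23, at 0.01 ± 0.72 (edgeR adjusted p = 0.99). The most abundant step was tRF_1_242, which ends 1 base before the end of the T run of tRF_1_279. It had 764, 260 and 179 CPM in the controls and 379, 202.9 and 80.0 in the knockouts. These overlap, and the log2 fold change was -0.86 ± 0.78 (edgeR adjusted p = 0.45). Without control replicate 1, the highest library, it was -0.02. The TTT-ended tRF_1_279 had 409, 224 and 212 CPM against 204, 202.9 and 133, at -0.65 ± 0.69 (edgeR adjusted p = 0.54).

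As a share of the ladder up to 23 nt, tRF_1_69 made up 4.399% ± 0.282 in the controls and 30.3% ± 8.07 in the knockouts (SD, n = 3 each). tRF_1_242 made up 35.3% ± 6.62 and 16.6% ± 7.24. The steps of 18 nt or less together made up 15.6% ± 3.48 and 49.7% ± 9.81. None of the 3 pairs of groups overlapped. These steps were chosen after their counts were seen, so the shares are a description with no test. Summed over the ladder, the groups overlapped. Its 7 sequences without a TTT end summed to 755 ± 559 CPM in the controls and 1055 ± 518 in the knockouts, a log2 fold change of 0.27 ± 0.57 (edgeR adjusted p = 0.80), and its short TTT-ended sequences gave -0.78 ± 0.58 (edgeR adjusted p = 0.43).

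**Figure D5:**
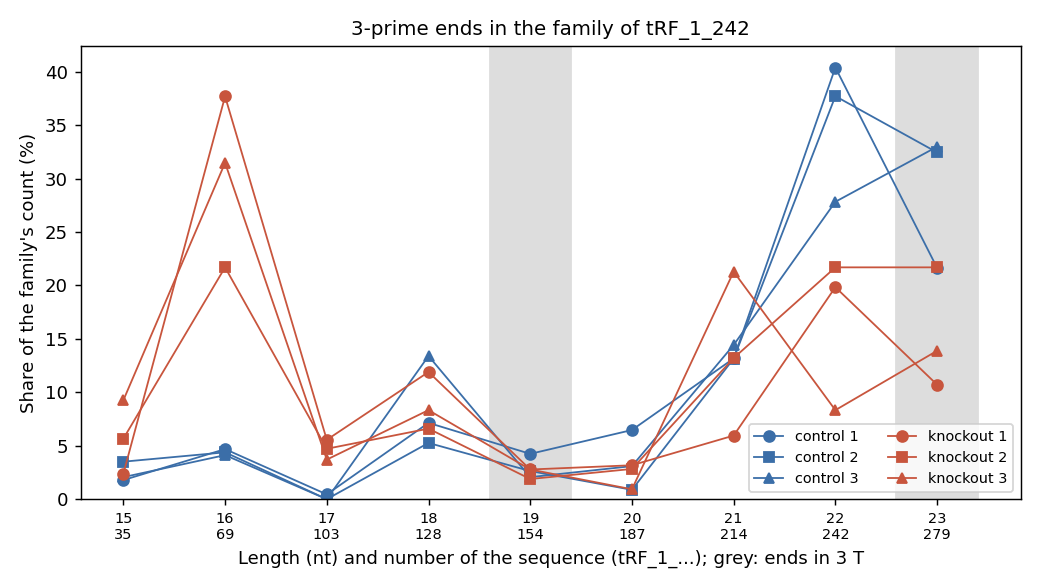
Share (%) of each library's ladder of tRF_1_242 (sequences of up to 23 nt) at each length in nt (x axis, with the number of the sequence), with controls in blue and knockouts in red, 1 line per library, and grey marking the 2 steps that end in TTT. At 16 nt (tRF_1_69) the 3 knockouts lie above all controls, and at 22 nt (tRF_1_242) below them.

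The most abundant sequences outside this ladder, tRF_1_114 and tRF_1_86, end in TT, inside the T run of their partners and 1 base before its end. tRF_1_114 had 456, 345 and 531 CPM in the controls and 348, 485 and 231 in the knockouts, which overlap, with a log2 fold change of -0.32 ± 0.65 (edgeR adjusted p = 0.77). tRF_1_86, 1 base later at the start, had 570, 242 and 478 CPM against 424, 291 and 240, with -0.43 ± 0.66 (edgeR adjusted p = 0.67). Their TTT-ended partners tRF_1_137 and tRF_1_118 had log2 fold changes of -1.30 ± 0.77 and -1.16 ± 0.75 (edgeR adjusted p = 0.23 and 0.28). In the ladder of tRF_1_114 the TT step was far above the steps on either side: it had 372 counts in all, against 4 for the single-T step and 78 for the TTT step.

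Other sequences lie past a T run. In the family of tRF_1_272 the TTT-ended tRF_1_64 had 795, 482 and 790 counts in the controls and 705, 510 and 435 in the knockouts, while tRF_1_272, which reads on through the T run and 4 A, had 3, 9 and 7 against 10, 12 and 12. In CPM tRF_1_272 had 12.7, 54.4 and 46.4 against 75.7, 106 and 107, without overlap, at a log2 fold change of 1.36 ± 0.72 (edgeR adjusted p = 0.17), and tRF_1_64 was at 0.25 ± 0.58 (edgeR adjusted p = 0.79). In the family of tRF_1_246, 3 of the 7 sequences (tRF_1_218, tRF_1_246 and tRF_1_283) end between the internal TTT at which tRF_1_190 ends and the terminal run of tRF_1_369, and the 4 others are shorter than tRF_1_190. tRF_1_246 ends in C and had 127, 60.5 and 99.5 CPM in the controls and 242, 70.6 and 160 in the knockouts, which overlap, at 0.72 ± 0.71 (edgeR adjusted p = 0.50). tRF_1_369 was at 0.20 ± 0.63 (edgeR adjusted p = 0.87).

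Of the 13 tested sequences, tRF_1_269 and tRF_1_281 end farthest inside a longer trailer, each 14 bases short of the nearest TTT-ended one. tRF_1_269, the first 23 bases of the alanine tRNA trailer, had 114, 139 and 113 CPM in the controls and 250, 221 and 435 in the knockouts. The groups did not overlap, and the log2 fold change was 1.30 ± 0.69 (edgeR adjusted p = 0.18). Over the 6 libraries tRF_1_269 had 174 counts, against 28 for the step 1 base shorter (tRF_1_234) and 53 for the step 1 base longer (tRF_1_298). tRF_1_281 had 148, 18.1 and 66.3 CPM against 68.1, 88.2 and 0, which overlap, at -0.58 ± 0.91 (edgeR adjusted p = 0.67). tRF_1_193, with no T-ended partner, had 21.1, 102.8 and 179 CPM against 37.9, 115 and 187, the spread within each group being far larger than the difference, at 0.18 ± 0.82 (edgeR adjusted p = 0.91).

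Sums over families take nested sequences together. Of the 70 families 11 passed the filter, and 0 were called in either direction by edgeR, where 17.8% of all families tested were (11% higher and 6.78% lower). At an unadjusted p under 0.05 there was 1. DESeq2 called 0, where it called 11.2% of all families (4.57% higher and 6.6% lower). That 1 was the family of tRF_1_251, with first bases agcaggctcact, which had 11, 3 and 8 counts in the controls and 37, 6 and 12 in the knockouts. Its log2 fold change was 1.70 ± 0.68 (edgeR adjusted p = 0.077), and its short TTT-ended sequences were at -0.18 ± 0.58 (edgeR adjusted p = 0.88). The filter needed 15.8, 52.1 and 25.5 counts in the controls and 3.77, 3.06 and 4.16 in the knockouts. The family of tRF_1_251 was over this limit in every knockout and in no control, and that of tRF_1_272 was likewise over it in no control. So was the family of tRF_1_122, with 4, 5 and 10 counts in the controls and 8, 11 and 12 in the knockouts. All of these were tested through the knockouts alone, so nothing is read from their direction. The families of tRF_1_269 and tRF_1_272 were at 1.05 ± 0.60 and 0.97 ± 0.62 (edgeR adjusted p = 0.23 and 0.31). Those of tRF_1_114, tRF_1_86 and tRF_1_281 lay below 0, at -0.50 ± 0.55, -0.58 ± 0.55 and -0.69 ± 0.66 (edgeR adjusted p = 0.62, 0.60 and 0.60). The family of tRF_1_246 was at 0.52 ± 0.57 and that of tRF_1_193 at -0.16 ± 0.67 (edgeR adjusted p = 0.62 and 0.91). The families of tRF_1_122 and tRF_1_285 were at 1.15 ± 0.67 and -0.27 ± 0.66 (edgeR adjusted p = 0.25 and 0.81).

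Within families, the sequences of 23 nt or less without a TTT end were compared, as a share of their own counts plus those of TTT-ended trailers of any length, for the 7 of the 8 most abundant families that have a TTT-ended trailer, a test added after the data were seen. In the family of tRF_1_242 it was 68.0% ± 5.30 in the controls and 81.8% ± 5.09 in the knockouts, and in that of tRF_1_272 it was 1.32% ± 0.378 and 2.64% ± 0.848 (SD, n = 3 each). In both the knockouts lay above all controls, with an exact permutation p of 0.10 each and a Benjamini-Hochberg adjusted p of 0.35 over the 7. The groups of the 5 other families overlapped. Among them are the families of tRF_1_269 and tRF_1_281, whose TTT-ended trailers are all longer than the size selection.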

How the data were processed

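Heart small RNA of 3 control and 3 knockout mice was sequenced with 4 technical replicates per mouse, per the labels' protocols. The sources used here do not say how these were combined, nor how tRF sequences were defined and reads assigned. Bowtie2 2.2.9, cutadapt 1.1.4, DESeq2 1.16.1 and build mm10 are named in the submitters' processing notes. The authors deposited raw counts per sequence, which were used here, with 1 column per mouse. Their deposited comparison table gives mean normalized signal, log2 fold change, a Wald score and p-values. Only rows of the 158 sequences are quoted, with the numbers of calls over all sequences. No deposited column was left unmapped.

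Counts of all 1336 sequences were tested with edgeR 4.0.16 (R 4.3.3), quasi-likelihood, group as the only term, TMM scaling, filterByExpr (minimum count 10) and Benjamini-Hochberg adjustment at 0.05. Standard errors came from the fold change and its F value. Counts summed by the first 12 nt within each class (trailers split into the 158, short TTT-ended and long ones) were tested alike. Shares were compared by exact two-sided permutation over 20 assignments (SciPy 1.17.1). Wilson 95% intervals cover counting error only. A count of 0 allows 3 counts (0.000388% to 0.00661% of the tRF count, depending on library). The edgeR step was tested on simulated data.

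Sequences named are those called, the 10 with the highest mean CPM, the 5 largest and the 5 smallest log2 fold changes among tested ones, and the 8 most abundant families with their most abundant T-ended trailer. Others (tRF_1_90, tRF_1_103, tRF_1_122, tRF_1_154, tRF_1_187, tRF_1_190, tRF_1_209, tRF_1_212, tRF_1_216, tRF_1_218, tRF_1_223, tRF_1_234, tRF_1_247, tRF_1_251, tRF_1_283, tRF_1_285, tRF_1_298 and tRF_1_435) were chosen after their values were seen. The members, lists and tests were chosen with earlier results of these data known. Alternatives were DESeq2's size factors, upper-quartile scaling, library totals alone, no filter, at least 10 counts in 3 libraries, DESeq2 1.42.0, the replicate number as a block, identical sequences collapsed (0 were repeated), other first-base and length limits, the most abundant member or sequence left out, and each library left out. Positions were read only from RefSeq windows around gene starts of GRCm38.p6, the assembly of mm10; other positions were not analysed here.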

Additional observations from a re-analysis of the deposited data

How the results depend on the processing

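The share of tRF counts stayed higher in the knockouts under every alternative run (difference 0.448 to 1.38 percentage points). The difference in share of trailer counts turned to 2.02 percentage points with sequences ending in TT left out, to 0.50 without the most abundant member, and ran from -0.914 to 0.713 with 1 library left out. The share of short trailers turned to 1.93 with TT ends left out and ran from -2.47 to -0.138 with 1 library left out. For single T ends the leave-one-out range was -1.52 to 2.77, and for A ends -1.70 to 0.502. A ends turned to 0.466 without tRF_1_69 and 0.365 without the family of tRF_1_242, alternatives added after the data were seen. TT and C ends kept their direction (leave-one-out -20.0004 to -11.3 and 8.24 to 14.5). The C-end difference of 11.3 fell to 3.64 without tRF_1_69 and 2.58 without its family, and the groups then overlapped. Calls of members as higher numbered 5 with library totals alone and 0 to 4 with 1 library left out: 0 without knockout replicate 1, 4 without knockout replicate 2 and 3 without knockout replicate 3. In those 3 leave-one-out fits 20, 24 and 24 members were tested. Over all sequences 30 of 332, 33 of 328 and 31 of 345 were called higher there. With library totals alone 13 members were tested, and 104 of all 254 sequences were called higher. With 1 library left out, the calls beyond tRF_1_69 were of sequences with at most 2 counts in any control. These passed the filter through the knockouts alone and support nothing. Family calls as higher numbered 5 of 11 tested with library totals alone, where 56 of all 118 families were called higher. With 1 library left out they numbered 0 to 1. The 1 came without knockout replicate 2, of 14 tested, where 11 of all 141 families were called higher. No member or family was called lower under any setting run.

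Of 146 log2 fold changes of named members under alternatives, 126 kept direction and call, 15 reversed, 4 gained a call and 1 lost it. With library totals alone tRF_1_86 was at 1.43, tRF_1_114 at 1.75, tRF_1_242 at 0.81 and tRF_1_281 at 1.13, since that scaling shifts all sequences. Upper-quartile scaling put tRF_1_114 at 0.044. Without a filter tRF_1_193 was at -0.15 and tRF_1_214 at -0.31, and tRF_1_214 was at -0.12 with both DESeq2's size factors and DESeq2. Leaving out 1 library gave -0.14 to 0.81 for tRF_1_128, -0.36 to 0.89 for tRF_1_193 and -0.35 to 0.64 for tRF_1_214; the cause was not tested. The log2 fold change of tRF_1_69 ran from 2.44 to 4.77.

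The labels name no litter or batch. Correlations of same-numbered deviations were -0.05, 0.27 and 0.02, and those of the other pairs ran from -0.28 to 0.21. With 3 libraries per group these values cannot show whether replicate numbers paired the mice. With the replicate number as a block, 1 member was higher (tRF_1_69 at 3.06, edgeR adjusted p = 0.0077), 0 families were called, and 66 of all sequences were called against 83. Depth limits the rest: 145 of the 158 were too low to be tested.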

Other observations

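Of the untested sequences, tRF_1_212, tctgtagcttataaggtctac, had counts of 2, 0 and 0 in the controls and 7, 1 and 8 in the knockouts and has no T-ended partner. tRF_1_223, agcaggctcactcttttctttg, had 0, 0 and 2 against 10, 0 and 5 and reads on past the T run of a shorter trailer. tRF_1_90, gtggtgtgctagttaaT, had 1, 1 and 1 against 6, 7 and 4. Without a filter none of these 3 was called (edgeR adjusted p = 0.25, 0.37 and 0.38), nor was any of them by DESeq2 (adjusted p = 0.16, 0.27 and 0.16). Other untested sequences of like depth had lower summed counts in the knockouts. tRF_1_216 had counts of 7, 4 and 3 in the controls and 1, 0 and 0 in the knockouts. tRF_1_247 had 6, 6 and 3 against 3, 0 and 0, and tRF_1_209 had 2, 0 and 10 against 1, 0 and 0. In CPM the groups overlapped for tRF_1_247 and tRF_1_209 but not for tRF_1_216. Without a filter none of these was called either (edgeR adjusted p = 0.38, 0.57 and 0.43).

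The 14 sequences that only extend a shorter TTT-ended trailer held 0.687%, 1.20% and 2.16% of the counts of the 158 in the controls and 5.28%, 2.49% and 3.13% in the knockouts. In counts these were 6, 4 and 10 against 31, 9 and 13, and tRF_1_251 and tRF_1_223 gave 13 and 10 of the 31 in knockout replicate 1. The 51 sequences that neither start nor extend a TTT-ended trailer held 4.47%, 10.2% and 15.6% against 7.84%, 11.9% and 17.3%, which overlap. These classes were chosen after the ladders were seen and were not tested.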
